A study of Mus musculus with 26 samples.

Results

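Messenger RNA on the ribosomes of D2 dopamine receptor neurons was set against the RNA of the tissue these neurons lie in, across all genes. The libraries were chosen by their labels alone, as the immunopurified (IP) and the input libraries of every condition that has an input. These are 15 of the 26 libraries of the series: 12 of its 23 IP libraries and its 3 inputs. All come from the dorsal striatum of adult Drd2-TRAP CP101 mice, a line on a mixed FVB/N-Swiss Webster background that was crossed to C57BL/6 for at least 9 generations. The mice carry a fusion of EGFP, a green fluorescent protein, with the ribosomal protein Rpl10a, and antibodies against EGFP pull the tagged polysomes out of the homogenate. The first condition, saline (3 IP libraries, 1 input), comes from mice that had given themselves saline. The second, nonescalating (4 IP libraries, 1 input), comes from mice that had given themselves cocaine intravenously in long sessions and fall in the group labelled nonescalating. The third, saline withdrawal (5 IP libraries, 1 input), comes from saline mice after a withdrawal period. Every library, the inputs included, comes from mice of the tagged line, and no precipitation from untagged mice was analysed here. The tag is driven by the regulatory region of Drd2, so any cell that uses this region can carry it. The labels leave unsaid whether the libraries stem from separate animals. All p-values thus rest on library-to-library spread, which may be technical.

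As background, the output neurons of the striatum are medium spiny neurons, which release GABA and fall into an indirect-pathway class that bears the D2 receptor and a direct-pathway class that bears the D1 receptor. The D2 class makes enkephalin from Penk and carries the adenosine receptor Adora2a, while the D1 class makes substance P and dynorphin. Drd2 is also active in the cholinergic interneurons of the striatum, and the input holds RNA of all of these cells together with glia, vessels and the axons that reach the region. In a bulk library, fewer cells of a type and less RNA per cell cannot be told apart.

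Levels are given as CPM, gene counts relative to the TMM-scaled total of their library, and every fold change is the log2 of IP over input from edgeR with condition and library set as further terms. Library set, A or B, was inferred from the library numbers. The saline withdrawal input falls in set B, while set A replicates 1 and 2 of that condition do not. Comparisons of a library with its own input use CPM without a set term. A fold change is given as estimate ± SE. A gene is called higher or lower where its Benjamini-Hochberg adjusted p from edgeR's quasi-likelihood test is under 0.05. The fit was repeated 15 times with 1 library left out, and where a named call ended without a library, the adjusted p there and the range over these 15 fits are given. Of 16424 genes tested, 549 were called higher in IP libraries (3.34%) and 576 lower (3.51%), 6.85% in all, and the median log2 fold change over all genes was 0.17, with 57.2% above 0. IP libraries held 3279457 to 14712619 gene counts and the inputs 5990977, 11549493 and 5016587 in the order saline, nonescalating, saline withdrawal. Some libraries stood apart before any gene was compared. Among IP libraries, 21.2% to 70.7% of uniquely aligned reads fell outside genes, with the highest shares in set A replicates 1 (70.7%) and 2 (52.7%) of saline withdrawal, and 27.3% to 31.6% did in the inputs (exact permutation within condition, two-sided p = 0.242, adjusted p = 0.275 over 6 measures). Reads ambiguous between genes made up 0.942% to 2.85% of unique reads in IP libraries and 8.61% to 12.8% in inputs, with no overlap (exact permutation p = 0.00833, the smallest that 120 arrangements can give, adjusted p = 0.05). The saline withdrawal input had 0 counts in 185 of the 9299 genes that hold at least 10 counts in each of the other libraries, against 0 to 32 in every other library. The counts of calls in most gene lists are therefore also given without set A of saline withdrawal, and without the saline withdrawal input and nonescalating replicate 2, called the sparse pair here (chosen after seeing the data).

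The promoters of 3 genes are shown because the first lies behind the tag, the second belongs to a neighbour of Drd2 that moved with it, and the third belongs to the receptor that moved the other way. Each is the stretch before the transcript start in RefSeq (GRCm38.p6, strand of the gene). Capitals mark 2 motifs searched on both strands, the GC box GGGCGG (shown as its reverse complement where it lies on the other strand) and TGACG, the core of the cAMP response element.
Drd2 promoter, plus strand of chr9:49340153-49340402: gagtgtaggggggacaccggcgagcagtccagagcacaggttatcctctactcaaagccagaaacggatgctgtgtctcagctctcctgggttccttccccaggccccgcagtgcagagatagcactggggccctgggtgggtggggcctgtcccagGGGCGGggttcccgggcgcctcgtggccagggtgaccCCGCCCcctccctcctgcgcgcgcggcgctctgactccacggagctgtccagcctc
Ttc12 promoter, minus strand of chr9:49486226-49486475: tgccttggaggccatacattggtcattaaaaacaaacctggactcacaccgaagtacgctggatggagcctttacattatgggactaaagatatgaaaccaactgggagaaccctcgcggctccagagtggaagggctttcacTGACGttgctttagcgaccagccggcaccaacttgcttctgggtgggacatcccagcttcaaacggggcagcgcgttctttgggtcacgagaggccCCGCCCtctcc
Drd1 promoter, minus strand of chr13:54055706-54055908: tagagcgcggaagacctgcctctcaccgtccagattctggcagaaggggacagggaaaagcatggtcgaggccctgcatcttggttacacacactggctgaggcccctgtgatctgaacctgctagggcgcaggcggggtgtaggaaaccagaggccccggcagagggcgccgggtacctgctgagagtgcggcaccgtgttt
The Drd2 window holds 2 GC boxes in 250 bases at a GC content of 68.8%, and the Ttc12 window holds 1 GC box and 1 TGACG at 54.8%. The Drd1 window, cut to 203 bases, holds neither motif at 62.6%. Among all 32851 promoter windows of 250 bases in the table, 32.7% held a GC box and 17.8% TGACG. Among the tested genes these shares were 54.9% and 25.1%. Windows of called genes gave 57.1% and 22.1% for genes called higher and 49.2% and 22.1% for genes called lower.

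Markers of D2 neurons were higher on the tagged ribosomes than in the tissue. Of 9 markers tested, 7 were called higher and 0 lower, all 9 had positive fold changes, and the list median was 1.91 against 0.17 over all genes. Drd2, the receptor itself, stood at 3019, 4623 and 2614 CPM in the saline IP libraries (replicates 1, 3 and 4), at 6734, 4295, 1838 and 3547 CPM in the nonescalating ones and at 807, 1796, 2084, 2534 and 3073 CPM in saline withdrawal (set A replicates 1 and 2, then set B replicates 1, 2 and 3). The inputs held 465, 554 and 417 CPM. Every IP library lay above every input, the lowest being set A replicate 1 of saline withdrawal, and the fold change was 2.80 ± 0.38, adjusted p = 0.000404.

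Penk, the enkephalin precursor, gave 3196, 4953 and 3756 CPM in saline, 5585, 5156, 2793 and 4122 CPM in nonescalating and 967, 1920.4, 3375, 3670.2 and 2461 CPM in saline withdrawal IP libraries in the same order, against 1081, 754 and 1088 CPM in the inputs. Set A replicate 1 of saline withdrawal fell below its own input and the other 11 IP libraries lay above every input. The fold change was 1.97 ± 0.31, adjusted p = 0.00146. In GENCODE M21 (GRCm38) Penk lies on chr4:4133531-4138819, Adora2a on chr10:75316877-75334784 and Drd1 on chr13:54051183-54055705, all protein coding. Adora2a, the adenosine receptor that opposes D2 signalling, showed a lowest, median and highest level of 142, 1086 and 1974 CPM over IP libraries and 298, 471 and 447 CPM in the inputs. Here too set A replicate 1 of saline withdrawal lay below the inputs while the other 11 lay above them. Its fold change was 1.58 ± 0.39, adjusted p = 0.0259, and the call ended in some fits without 1 library: Adora2a (0.126 without the saline input and 0.132 without the nonescalating input, range 0.00461 to 0.132).

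The remaining D2 markers spread over a wide range of levels. Grik3, a kainate-type glutamate receptor, was higher at 1.68 ± 0.27, adjusted p = 0.00205, with a lowest, median and highest IP level of 157, 583 and 1097 CPM and inputs at 173, 279 and 175 CPM. Plxdc1, a plexin-domain membrane protein, ran from 35.7 to 89.5 CPM with a median of 56.5 CPM and stood above all inputs (15.1, 29 and 11.5 CPM) in each of the 12 IP libraries, at 1.61 ± 0.30, adjusted p = 0.00561. Both calls held in all 15 fits that leave out 1 library. The orphan receptor Gpr6 (1.91 ± 0.40, adjusted p = 0.0111) and the transcription factor Sp9 (2.29 ± 0.46, adjusted p = 0.00859) were each above their own input in 11 of 12 IP libraries. Without 1 library these calls ended in some fits: Gpr6 (0.0583 without the saline input and 0.0607 without the saline withdrawal input, range 0.00339 to 0.0607) and Sp9 (0.0563 without the saline input and 0.0824 without the nonescalating input, range 0.00289 to 0.0824). Upb1, an enzyme of pyrimidine breakdown, was above its own input in 12 of 12 libraries but at low levels (4.11 ± 2.33 against 0.667 ± 0.933 CPM, SD, n = 12 and 3), and was not called (2.76 ± 1.15, adjusted p = 0.149). The orphan receptor Gpr52 was not called either (0.65 ± 0.35, adjusted p = 0.25, 95% interval -0.09 to 1.39). Per kilobase of exon, the mean IP levels put Penk first (2139.7 RPKM), then Drd2 (1209 RPKM), Adora2a (371 RPKM), Grik3 (68.3 RPKM), Gpr6 (51.8 RPKM), Sp9 (29.2 RPKM) and Plxdc1 (11.8 RPKM).

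**Figure D1:**
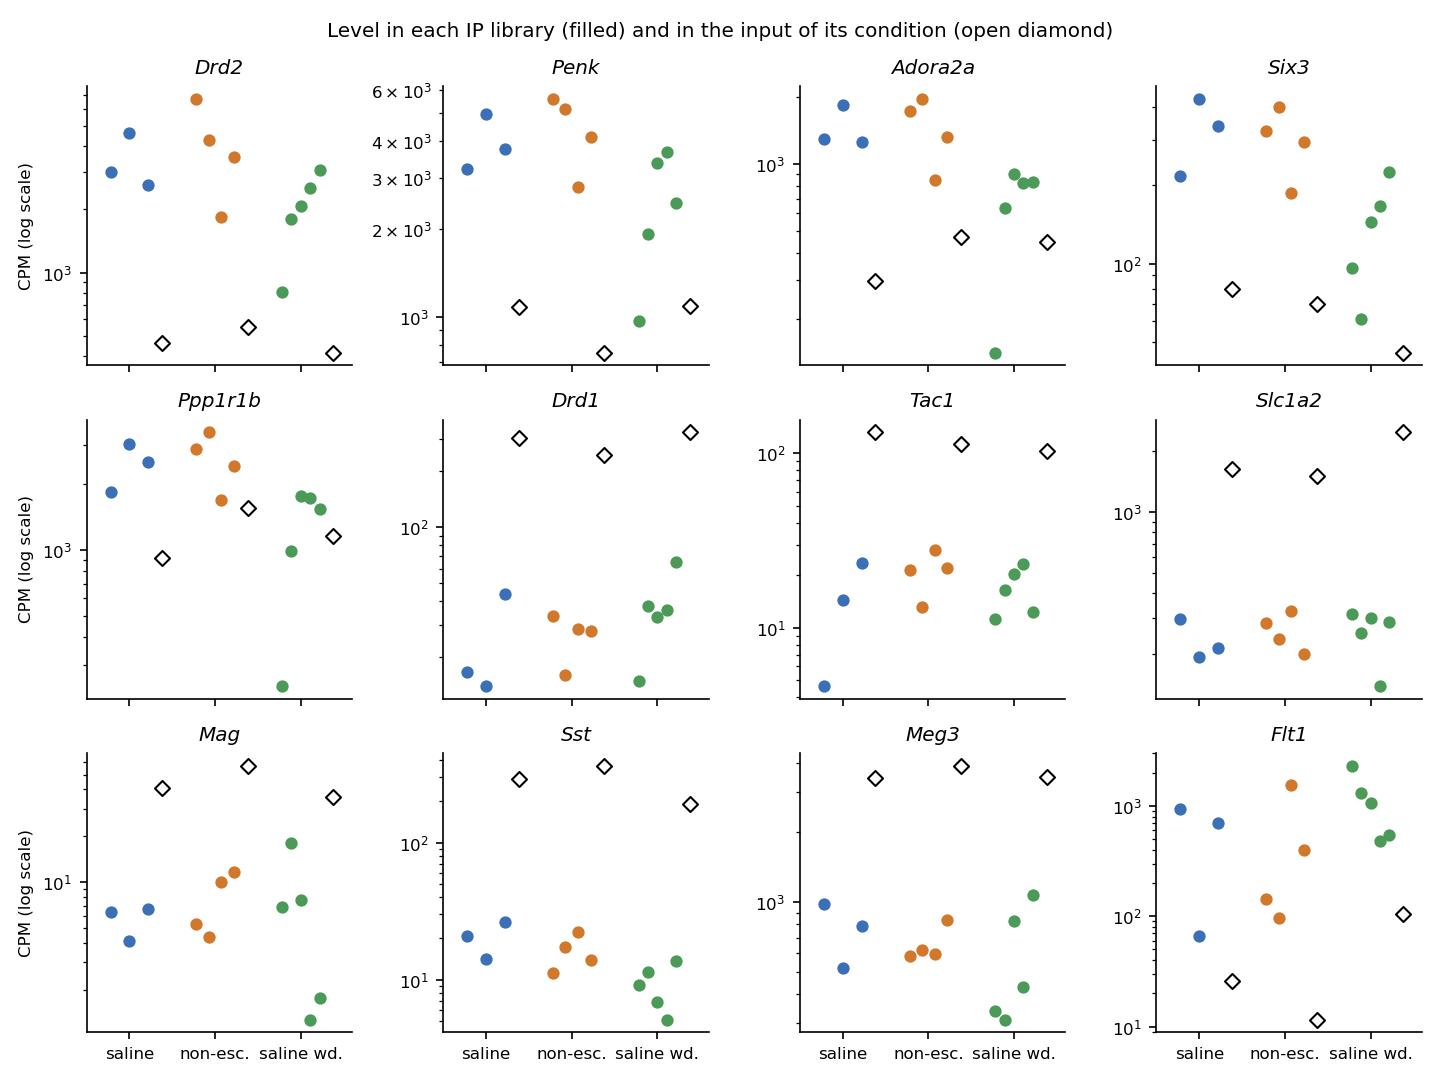
Levels of 12 genes in CPM on log axes, with 1 filled point per IP library (3 saline, 4 nonescalating, 5 saline withdrawal) and an open diamond for the single input of each condition. Drd2 lies between 807 and 6734 CPM in IP libraries and at 417 to 554 CPM in the inputs, while Drd1, Slc1a2, Mag and Sst lie below their inputs in every IP library.

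The count of called D2 markers rested on few libraries. It was 7 without set A replicates 1 and 2 of saline withdrawal, the libraries with over 50% of reads outside genes. It was 6 without the saline withdrawal input and nonescalating replicate 2, the pair with most genes at 0, a setting chosen after seeing the data. Without the saline input it was 4. The summed level of the 9 markers relative to the input of the same condition ran from 0.981 in set A replicate 1 of saline withdrawal, then 2.19 in set A replicate 2, to 7.08 in nonescalating replicate 1, and was above 1 in 11 of 12 IP libraries. Whether the reads outside genes have a part in these low values was not tested.

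Beyond the marker list, Six3, a homeodomain transcription factor of striatal development, was higher at 2.05 ± 0.29, adjusted p = 0.000509. Its saline IP libraries held 218, 431 and 338 CPM, the nonescalating ones 324, 401, 186 and 294 CPM and those of saline withdrawal 96.3, 61.2, 145, 166 and 225 CPM, against 79.6, 69.6 and 45.4 CPM in the inputs. All 12 IP libraries lay above the input of their own condition, and the estimates within saline, nonescalating and saline withdrawal were 2.05, 2.12 and 1.98. In the list of 31 transcription factors of striatal neurons 3 were called higher and 2 lower (list median 0.35). The others were Sp9 and Mef2d, an activity-regulated factor (1.03 ± 0.24, adjusted p = 0.0194), on the higher side, and its relative Mef2c (-0.69 ± 0.18, adjusted p = 0.0269) and Onecut2 (-1.45 ± 0.29, adjusted p = 0.008) on the lower side. Leaving out 1 library ended some of these calls: Mef2d (0.0692 without the saline input, 0.0503 without the nonescalating input and 0.116 without the saline withdrawal input, range 0.0123 to 0.116), Mef2c (0.075 without the saline input and 0.221 without the nonescalating input, range 0.026 to 0.221) and Onecut2 (0.0761 without the nonescalating input, range 0.00312 to 0.0761). The list held 2 calls without the saline input and 1 without the nonescalating one.

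The chromosome 9 neighbourhood of Drd2 was uneven. Drd2 (49340627 to 49408177, GENCODE M21, GRCm38) is followed by Ankk1 and Ttc12, both on the opposite strand, and by Ncam1. Ttc12, which encodes a protein of cilium dynein assembly, held a lowest, median and highest IP level of 94.7, 352 and 646 CPM against inputs of 73.4, 109.8 and 78.4 CPM. It was above its own input in 12 of 12 libraries and was called (2.18 ± 0.36, adjusted p = 0.00208), also in all 15 fits without 1 library. Ankk1, a kinase gene that lies between Drd2 and Ttc12, had 1.22 ± 0.37, adjusted p = 0.0583, without a call, and was above its own input in 11 of 12 libraries. Ncam1, the neural cell adhesion molecule, had -0.34 ± 0.22, adjusted p = 0.342, and its 95% interval was -0.81 to 0.13. The 2 other tested genes within 250 kb, Gm4894 and Gm11149, were not called.

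Transcripts of D1 neurons were lower on D2 ribosomes than in the tissue. Of 9 D1 markers tested, 6 were called lower and 0 higher (median -2.54), and 7 were below their own input in every IP library. Drd1, the D1 receptor, held 16.8, 14 and 43.7 CPM in saline, 33.3, 16.1, 28.4 and 27.6 CPM in nonescalating and 15, 37.6, 33, 36.1 and 65.1 CPM in saline withdrawal IP libraries, against 304, 245 and 325 CPM in the inputs. The highest IP library, set B replicate 3 of saline withdrawal, was still below the lowest input, and the fold change was -3.24 ± 0.32, adjusted p = 1.92e-05. The same direction was called within each condition taken alone, at -3.60, -3.21 and -2.86 (adjusted p = 0.0375, 0.0185 and 0.0176).

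Tac1, the substance P precursor, fell from inputs of 132, 113 and 103 CPM to a lowest, median and highest IP level of 4.63, 18.4 and 28 CPM, and Sfxn1, a mitochondrial serine transporter, from 42.5, 49.2 and 68.7 CPM to 11.1, 19 and 28.2 CPM (-1.48 ± 0.30, adjusted p = 0.00891). In neither did the IP libraries overlap the inputs. The other called members were Pdyn, the dynorphin precursor (-2.54 ± 0.52, adjusted p = 0.0101), Slc35d3 (-2.81 ± 0.63, adjusted p = 0.0153) and the muscarinic receptor Chrm4 (-1.74 ± 0.41, adjusted p = 0.019). These 3 calls ended without single inputs: Pdyn (0.104 without the saline input and 0.146 without the nonescalating input, range 0.000552 to 0.146), Slc35d3 (0.0962 without the saline input and 0.0707 without the nonescalating input, range 0.0116 to 0.0962) and Chrm4 (0.0802 without the saline input, 0.105 without the nonescalating input and 0.0602 without the saline withdrawal input, range 0.0133 to 0.105). Pdyn was at 8.76 CPM in the saline withdrawal input, against 84.9 and 72.4 CPM in the other inputs, and 4 of the 5 IP libraries of that condition lay above it. Ebf1, a transcription factor of D1 neuron development, went against its list without a call (0.94 ± 0.57, adjusted p = 0.304, above its own input in 10 of 12 libraries). The count of called D1 markers was 6 without set A of saline withdrawal, 5 without the saline withdrawal input and nonescalating replicate 2, and 3 without the saline or the nonescalating input.

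Ratios within a library do not depend on scaling between libraries. Drd2 exceeded Drd1 by 1.53, 2.26 and 1.28 times in the saline, nonescalating and saline withdrawal inputs. In the IP libraries the lowest, median and highest ratio were 47.2, 67.5 and 329.9, and set A replicate 1 of saline withdrawal, the lowest library for Drd2 alone, gave 53.8. The ratio of Penk to Tac1 was 6.67 to 10.6 in the inputs and 86.4, 176 and 691 (lowest, median, highest) in IP libraries. All 12 IP libraries thus lay above all inputs in both ratios. Over the whole lists, the summed D2 markers were 2.99 to 3.80 times the summed D1 markers in the inputs and 4.87 to 132 times in IP libraries, the lowest again in set A replicate 1 of saline withdrawal.

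Genes that both medium spiny classes share sat between the 2 marker lists, with a median of 0.47. Of 20, 1 was called higher and 0 lower, 16 had positive fold changes, and for 7 the 95% interval lay within 2-fold of equality. That was the case for 2908 of all genes (17.7%), whose median IP level was 86.4 CPM against 13.3 CPM over all genes tested. Ppp1r1b, which encodes the dopamine-regulated phosphatase inhibitor DARPP-32, held 239, 1798 and 3426 CPM (lowest, median, highest) in IP libraries and 920.1, 1557 and 1154 CPM in the inputs, which overlap, and its fold change was 0.87 ± 0.34, adjusted p = 0.129. Gnal, the G protein that couples both dopamine D1 and adenosine receptors to cyclase, had 0.34 ± 0.23, adjusted p = 0.377 (95% interval -0.16 to 0.83). Arpp21, a regulated phosphoprotein, had -0.06 ± 0.28, adjusted p = 0.917 (-0.65 to 0.53), and Adcy5, the main adenylyl cyclase of striatum, -0.04 ± 0.33, adjusted p = 0.952 (-0.73 to 0.65). Rgs9, a brake on G protein signalling, was below its own input in 12 of 12 libraries without being called (-0.70 ± 0.24, adjusted p = 0.0868). The single call was Rasd2, a striatal small G protein (0.97 ± 0.28, adjusted p = 0.0488), above its own input in 10 of 12 libraries. Its adjusted p ran from 0.0152 to 0.164 over the 15 fits that leave out 1 library and stayed under 0.05 in 4 of them, those without saline replicate 1, nonescalating replicate 3 and set A replicates 1 and 2 of saline withdrawal. Without both set A libraries of saline withdrawal 4 shared genes were called higher and 1 lower, while without the saline withdrawal input and nonescalating replicate 2 the count was 0 (edgeR, 4 higher and 1 lower at an unadjusted p under 0.05).

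**Figure D2:**
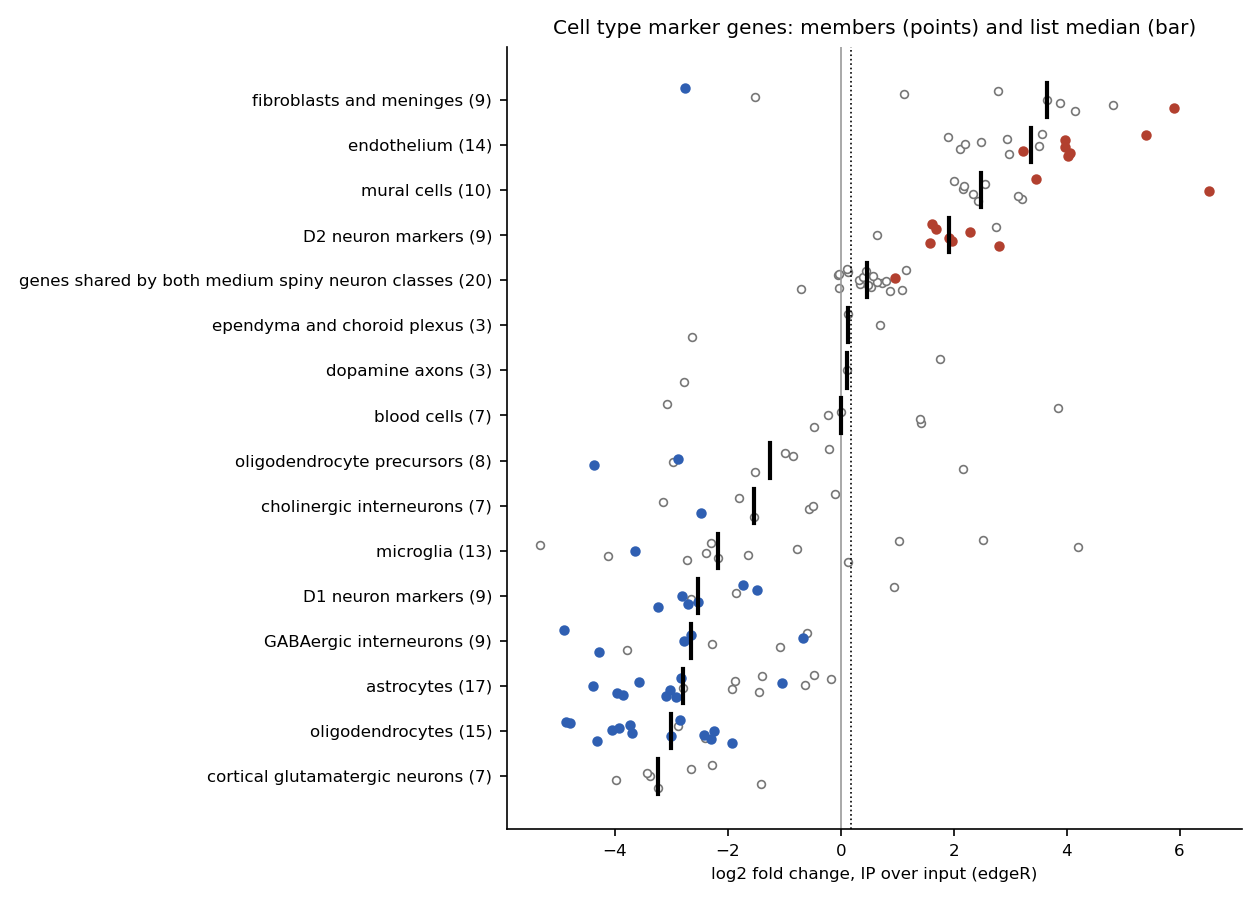
Log2 fold change of IP over input for each tested member of 16 cell type lists (list sizes in parentheses), with filled points for called genes, open points for the rest, a bar at each list median and a dotted line at the median of all genes (0.17). D2 markers centre on 1.91 and D1 markers on -2.54, with genes shared by both classes near 0.47.

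Calls among receptors and their effectors are given beside the shares over all genes, 3.34% called higher and 3.51% lower. Of 50 G protein-coupled receptors of striatum, 3 were called higher, all of them D2 markers given above (Drd2, Gpr6, Adora2a), and 4 lower: Drd1, Chrm4, the substance P receptor Tacr1 (-1.74 ± 0.36, adjusted p = 0.0098) and the metabotropic glutamate receptor Grm3 (-1.19 ± 0.24, adjusted p = 0.00827). The calls of the last pair ended without single inputs: Tacr1 (0.0514 without the nonescalating input and 0.0853 without the saline withdrawal input, range 0.00461 to 0.0853) and Grm3 (0.0551 without the nonescalating input and 0.0629 without the saline withdrawal input, range 0.00193 to 0.0629). The list held 4, 3 and 3 calls without the saline, nonescalating and saline withdrawal input, and its median was -0.40. Among 30 G proteins, cyclases and cAMP effectors 0 were called higher and 5 lower, 17 lay within 2-fold of equality, and the median was -0.08. Gnai1, an inhibitory G protein subunit whose call held in all 15 fits without 1 library, stood at 47.2, 112 and 151 CPM in IP libraries and 382, 364 and 269.9 CPM in the inputs, with no overlap (-1.55 ± 0.19, adjusted p = 0.000164). The count of 5 fell to 3 without saline replicate 4 and to 1 without the saline or the nonescalating input. The cyclase Adcy2 (-2.28 ± 0.47, adjusted p = 0.0102) was also called lower, with the following adjusted p without single inputs: Adcy2 (0.0953 without the saline input and 0.153 without the nonescalating input, range 0.000561 to 0.153). Of 17 regulators of G protein signalling Rgs17 alone was called, lower at -1.46 ± 0.20, adjusted p = 0.000376 and below its own input in 12 of 12 libraries. That list held 2 calls without saline replicate 3, nonescalating replicate 2, set A replicates 1 or 2 of saline withdrawal, or the saline input. The receptor calls were 5 higher and 5 lower without set A and 2 higher and 1 lower without the sparse pair.

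Markers of other neurons of the striatum were lower on the tagged ribosomes. Of 9 markers of GABAergic interneurons tested, 5 were called lower and 0 higher, at a median of -2.65. Sst, the somatostatin precursor, had 20.9, 14.1 and 26.5 CPM in saline, 11.3, 17.4, 22.4 and 13.9 CPM in nonescalating and 9.13, 11.4, 6.85, 5.09 and 13.8 CPM in saline withdrawal IP libraries, and 291, 364 and 193 CPM in the inputs. No IP library came near an input, and the fall was called within each condition alone (-3.82, -4.49 and -4.50). Kcnc2, a potassium channel of fast-spiking interneurons, was at 0.25, 0.991 and 2.54 CPM in IP libraries and 16.7, 64.5 and 48.9 CPM in the inputs (-4.91 ± 0.63, adjusted p = 0.00024), again without overlap. Lhx6, a transcription factor of interneurons from the medial ganglionic eminence, was lower at -2.65 ± 0.52, adjusted p = 0.00726, a call that ended without 1 input: Lhx6 (0.0892 without the nonescalating input, range 0.00644 to 0.0892). The list count was 6 without set A of saline withdrawal, 4 of 8 without the saline withdrawal input and nonescalating replicate 2, and 2 without the nonescalating input.

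Cholinergic interneurons, which use Drd2 themselves, were lower in summed marker level in all 12 IP libraries, at 0.114 to 0.659 of the input of the same condition. All 7 tested members had negative fold changes and 1 was called. Slc5a7, the choline transporter, held 1.46, 9.32 and 13.6 CPM in IP libraries and 35.8, 45.1 and 70.3 CPM in the inputs (-2.48 ± 0.43, adjusted p = 0.00346), with no overlap. Chat, which makes acetylcholine, was below its own input in 12 of 12 libraries and was not called (-1.55 ± 0.61, adjusted p = 0.131). The count was 2 without saline replicate 1, nonescalating replicate 2 or nonescalating replicate 4, and 1 without set A or the sparse pair.

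Markers of cortical glutamatergic neurons, whose axons but not cell bodies lie in the striatum, did not lie on one side in every condition. The median over 7 genes was -3.25 in the fit over all libraries, but -3.12, -4.27 and 2.11 within saline, nonescalating and saline withdrawal. The summed list was at 218, 360 and 20.3 CPM in the inputs of these conditions, and IP libraries held 0.00035 to 1.88 of their input, the highest in set B replicate 3 of saline withdrawal. With all libraries 0 genes were called by edgeR (5 lower at an unadjusted p under 0.05), 1 by DESeq2 and 4 by limma voom. The calls were 0 by edgeR (0 higher and 5 lower at an unadjusted p under 0.05) without set A and 0 higher and 2 lower without the sparse pair, with 5 genes tested in the former.

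Markers of mature oligodendrocytes and of astrocytes were lower in IP libraries. Of 15 oligodendrocyte markers 13 were called lower and 0 higher, at a median of -3.0, and 14 were below their own input in every IP library. Mag, an adhesion protein of myelin, held 6.43, 4.13 and 6.63 CPM in saline, 5.33, 4.41, 9.99 and 11.6 CPM in nonescalating and 6.83, 18, 7.68, 1.27 and 1.76 CPM in saline withdrawal IP libraries against 41, 56.9 and 36 CPM in the inputs. The highest IP library, set A replicate 2 of saline withdrawal, was below the lowest input, and the fold change was -3.0 ± 0.46, adjusted p = 0.0012. The cytoskeletal gene Ermn (-3.93 ± 0.48, adjusted p = 0.000164) and the myelin lipid enzyme Ugt8a (-3.73 ± 0.67, adjusted p = 0.00394) were below their own input in 12 of 12 libraries. Like Mag, each was called in all 15 fits without 1 library. The summed list stood at 0.0683 to 0.165 of input. The count was 13 without set A and 9 without the sparse pair. Markers of oligodendrocyte precursors were mixed: of 8 tested, 2 were called lower and 0 higher, at a median of -1.26, and the summed list ran from 0.253 to 2.27 of input. It was above input in 5 of 12 libraries, with the highest values in set A replicates 1 (2.27) and 2 (2.03) of saline withdrawal. The called genes were the transcription factors Olig1 (-4.38 ± 0.80, adjusted p = 0.00486) and Sox10 (-2.88 ± 0.68, adjusted p = 0.0197), which mature oligodendrocytes also express, and both calls ended without single inputs: Olig1 (0.0502 without the saline withdrawal input, range 0.000937 to 0.0502) and Sox10 (0.0735 without the saline input, 0.149 without the nonescalating input and 0.0545 without the saline withdrawal input, range 0.00171 to 0.149). The proteoglycan Cspg4 was the only 1 of the 8 with a positive fold change and was not called (2.16 ± 1.0, adjusted p = 0.185). It is also in the list of mural cell markers given below, whose 10 genes all had positive fold changes. The precursor calls were 0 higher and 3 lower without set A and 0 higher and 2 lower without the sparse pair.

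Among 17 astrocyte markers 9 were called lower and 0 higher (median -2.80). Slc1a2, the glial glutamate transporter, had a lowest, median and highest IP level of 139, 268 and 328 CPM and inputs of 1635, 1516 and 2486 CPM, with no overlap, at -2.91 ± 0.22, adjusted p = 1.44e-06. Its estimates within saline, nonescalating and saline withdrawal were -2.79, -2.53 and -3.36. Slc1a3, the other glial glutamate transporter (-3.09 ± 0.33, adjusted p = 4.45e-05), and Aqp4, the water channel of astrocyte endfeet (-3.03 ± 0.45, adjusted p = 0.000817), were below every input in every IP library too. So was Kcnj10, a potassium channel of astrocytes that the list does not hold (-3.17 ± 0.46, adjusted p = 0.000702). The summed astrocyte list was at 0.17 to 0.398 of input, and 9 and 8 markers were called without set A of saline withdrawal and without the saline withdrawal input and nonescalating replicate 2. Microglial markers were at 0.117 to 0.833 of input in sum, with Ctss, a lysosomal protease, called lower among 13 (-3.65 ± 0.78, adjusted p = 0.0118) and 0 called higher. The call ended in some fits: Ctss (0.085 without the nonescalating input and 0.075 without the saline withdrawal input, range 0.00547 to 0.085). Single genes lay on both sides, with positive fold changes and no call for Aif1 (4.21), Siglech (2.52), Laptm5 (1.04) and the growth factor receptor Csf1r (0.13). The list median was -2.17 over all libraries and -0.90, -1.06 and 0.00 within saline, nonescalating and saline withdrawal. The microglial count was 2 without saline replicate 4, nonescalating replicate 1 or the saline input. It was 0 higher and 1 lower without set A and 0 by edgeR (0 higher and 2 lower at an unadjusted p under 0.05) without the sparse pair, with 9 genes tested in the former. Lists of ependyma and choroid plexus (3 genes), blood cells (7) and dopamine axons (3) held 0 calls by edgeR, with 1 dopamine axon gene lower at an unadjusted p under 0.05, which DESeq2 and limma voom called.

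**Figure D3:**
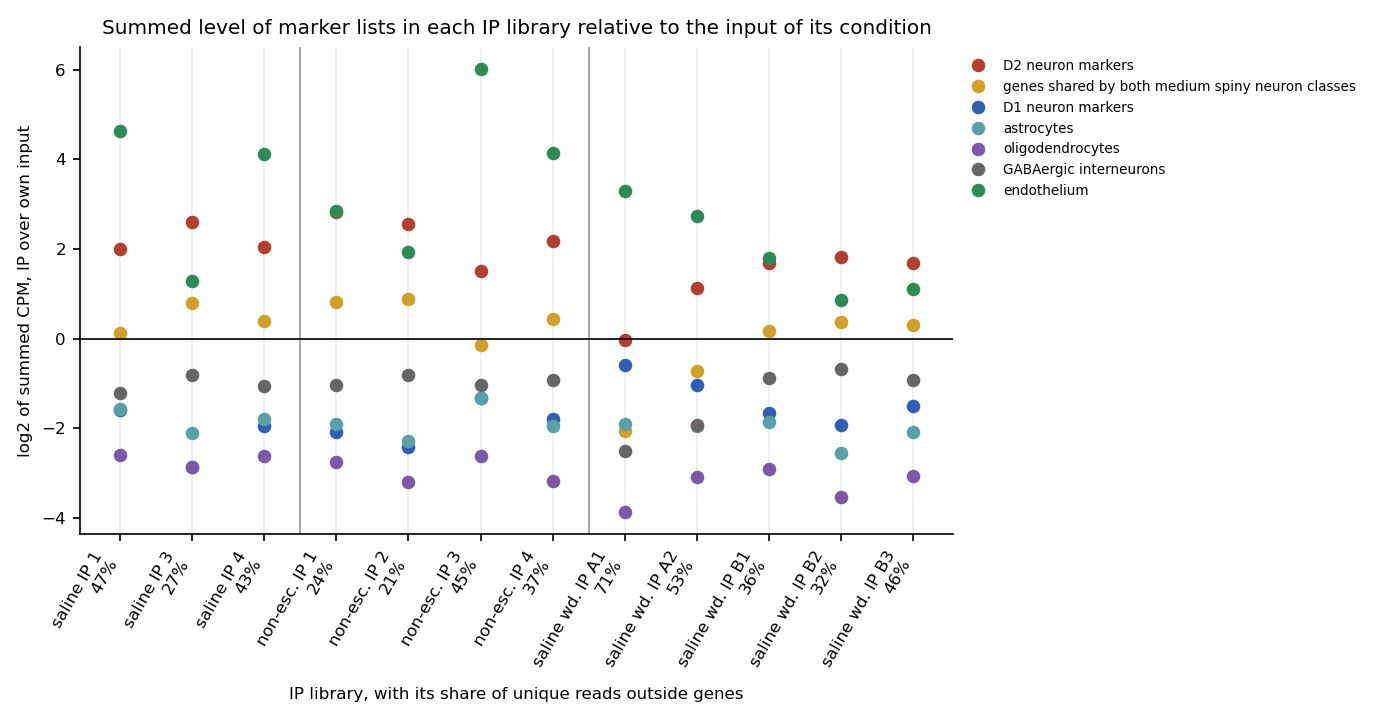
Log2 of the summed CPM of 7 marker lists in each IP library over the same sum in the input of its condition, with the share of unique reads outside genes under each library. D1, astrocyte, oligodendrocyte and GABAergic interneuron sums lie below 0 in all 12 libraries and endothelium above 0 in all 12, while the D2 sum is lowest in set A replicate 1 of saline withdrawal (0.981 times input).

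Neuropeptide precursors fell on both sides. Of 12 tested, Penk was called higher and 5 lower: Tac1, Pdyn, Sst, the secreted neurexin ligand Nxph1 (-3.24 ± 0.65, adjusted p = 0.00835) and Apln, the apelin precursor. Apln was at or near 0 in IP libraries, at 0, 0.524 and 1.57 CPM (lowest, median, highest) against 9.93, 20.7 and 42.6 CPM in the inputs (-5.47 ± 0.97, adjusted p = 0.00353). The list median was -2.59 over all libraries and -2.61, -2.75 and -0.08 within saline, nonescalating and saline withdrawal. Calls in the list were 1 higher and 6 lower without set A and 1 higher and 6 lower without the sparse pair. 1 of these calls ended without an input: Nxph1 (0.085 without the nonescalating input, range 0.00312 to 0.085). Of 14 genes of peptide processing and storage 2 were called, both lower and both in all 15 fits without 1 library. Scg2, a granin of dense-core vesicles, held 32.8, 95.8 and 152 CPM in IP libraries and 329, 217 and 328 CPM in the inputs (-1.56 ± 0.24, adjusted p = 0.00126), and Scg3, its binding partner, 13, 20.4 and 37.5 CPM and 83.8, 70.5 and 112 CPM (-1.82 ± 0.24, adjusted p = 0.000287). Neither gene's IP libraries overlapped its inputs. The processing list held 2 calls without set A and 2 without the sparse pair.

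Counts for ion channel and synaptic vesicle genes stand beside 6.85% of all genes called in either direction. Among 47 potassium channels 1 was called higher and 5 lower, and 14 lay within 2-fold of equality (2 calls without the nonescalating input). Besides Kcnc2 and Kcnj10, the lower ones included Kcnd3, which carries a transient current (-1.14 ± 0.25, adjusted p = 0.014). Among 32 sodium, calcium and HCN channels 0 were called higher and 2 lower, with 16 within 2-fold. Scn1a, a sodium channel abundant in fast-spiking interneurons, was lower at -1.40 ± 0.22, adjusted p = 0.00146, with IP libraries at 52.2, 113 and 149.9 CPM and inputs at 215, 276 and 423 CPM. Of 39 genes of synaptic vesicle release 25 lay within 2-fold, 0 were called higher and 2 lower, among them the calcium sensor Syt7 (-1.03 ± 0.25, adjusted p = 0.0239). The vesicle list held 0 calls without the saline or the nonescalating input (edgeR, 5 and 4 lower at an unadjusted p under 0.05). Kcnd3 and Syt7 were over 0.05 in some fits: Kcnd3 (0.121 without the nonescalating input and 0.0589 without the saline withdrawal input, range 0.00951 to 0.121) and Syt7 (0.101 without the saline input and 0.162 without the nonescalating input, range 0.0168 to 0.162). The sodium, calcium and HCN list held 1 call without any 1 of 6 libraries (saline replicate 1, nonescalating replicate 4, set B replicates 1 and 2 of saline withdrawal, the nonescalating and the saline withdrawal input). The vesicle fusion protein Snap25 is an example, at 1132, 4946 and 6539 CPM in IP libraries and 5396, 5598 and 4279.8 CPM in the inputs (-0.01 ± 0.23, 95% interval -0.49 to 0.47), where the groups overlap. Without the sparse pair the potassium channel list held 1 higher and 3 lower and the vesicle list 0 higher and 1 lower.

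The postsynaptic density list held 33 genes, with 3 called higher, 2 lower and 14 within 2-fold of equality. Nrgn, a calmodulin-binding protein of spines, was at 79.7, 471 and 753 CPM in IP libraries and 195, 209.8 and 178 CPM in the inputs (1.42 ± 0.31, adjusted p = 0.0132). Shank3, a scaffold of striatal synapses, was above every input in 12 of 12 libraries (176, 225 and 299 CPM against 149, 134 and 139 CPM, 0.75 ± 0.18, adjusted p = 0.0198). Both calls ended without single inputs: Nrgn (0.0546 without the saline input, 0.0743 without the nonescalating input and 0.0682 without the saline withdrawal input, range 0.00437 to 0.0743) and Shank3 (0.0891 without the saline input and 0.105 without the nonescalating input, range 0.0198 to 0.105). Camk2a, the kinase of the postsynaptic density, had 0.00 ± 0.21 with a 95% interval of -0.46 to 0.45. The count of 5 calls in the list was 2 or 3 without any 1 of 6 IP libraries (saline replicates 1 and 4, nonescalating replicates 1 and 4, set B replicates 1 and 2 of saline withdrawal), and 1, 0 and 2 without the saline, nonescalating and saline withdrawal input. Among 17 ionotropic glutamate receptors Grik3 was called higher, and the AMPA receptor subunit Gria4 (-1.39 ± 0.25, adjusted p = 0.00411) and the kainate receptor subunit Grik2 (-1.11 ± 0.25, adjusted p = 0.0167) lower. Without the nonescalating input 1 call was left in that list (Gria4 (0.0835 without the nonescalating input, range 0.00324 to 0.0835) and Grik2 (0.0533 without the saline input, 0.0932 without the nonescalating input and 0.0783 without the saline withdrawal input, range 0.00606 to 0.0932)). Calls in the postsynaptic list were 5 higher and 2 lower without set A and 1 higher and 1 lower without the sparse pair, and those in the receptor list 3 higher and 2 lower without set A and 1 higher and 1 lower without the sparse pair.

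For genes of general cell machinery too, the background was 6.85% of all genes called in either direction. An interval within 2-fold also depends on level, as such genes had a median of 86.4 CPM in IP libraries against 13.3 CPM over all genes. Of them 0.206% had a 0 in some input, against 27.1% of all genes. The part of level in the list shares was not tested. For 26 of 46 nuclear-encoded genes of oxidative phosphorylation, 17 of 29 chaperones and 22 of 44 large-subunit ribosomal proteins the 95% interval lay within 2-fold of equality, against 17.7% of all genes. In the first list 1 gene was called, the complex I subunit Ndufb5 (-1.34 ± 0.31, adjusted p = 0.0167), and the call ended in some fits: Ndufb5 (0.156 without the saline withdrawal input, range 0.0138 to 0.156). Of the 29 chaperones 0 were called by edgeR (0 higher and 3 lower at an unadjusted p under 0.05, 2 by DESeq2, 0 by limma voom). The only large-subunit ribosomal protein called was Rpl10a, whose symbol the tagged fusion shares. It held 62.7, 160.0 and 353 CPM in IP libraries and 70.9, 72.3 and 37.1 CPM in the inputs, above its own input in 12 of 12 libraries (1.75 ± 0.32, adjusted p = 0.00464). Of 32 small-subunit ribosomal proteins, 9 lay within 2-fold, 2 were called higher and 1 lower, at a median of 0.01. Rps12 (1.63 ± 0.40, adjusted p = 0.0239) and Rps15 (0.82 ± 0.23, adjusted p = 0.0394) were higher, and both calls ended without single libraries: Rps12 (0.0552 without the saline input and 0.127 without the nonescalating input, range 0.0221 to 0.127) and Rps15 (0.0507 without the saline IP replicate 1, 0.052 without the saline IP replicate 3, 0.065 without the saline IP replicate 4, 0.0612 without the nonescalating IP replicate 4, 0.0646 without the saline withdrawal IP set B replicate 1, 0.0577 without the saline withdrawal IP set B replicate 2, 0.1 without the saline input, 0.214 without the nonescalating input and 0.0505 without the saline withdrawal input, range 0.0286 to 0.214). Rps15a was lower at -1.41 ± 0.23, adjusted p = 0.0019, below its own input in 12 of 12 libraries. The small-subunit calls were 2 higher and 2 lower without set A and 2 higher and 1 lower without the sparse pair. The most abundant genes within 2-fold of equality included Ndrg4 (0.26 ± 0.26) and the microtubule-associated protein Map1b (-0.48 ± 0.20). Cholesterol synthesis was lower in summed level in all 12 IP libraries, at 0.523 to 0.866 of input. Of its 22 genes 3 were called lower, among them the pathway's entry enzyme Hmgcs1 (24.5, 38.3 and 93.5 CPM in IP libraries, 96.3, 105 and 182 CPM in the inputs, -1.35 ± 0.21, adjusted p = 0.00139). The calls in that list were 0 higher and 3 lower without set A and 0 higher and 2 lower without the sparse pair.

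**Figure D4:**
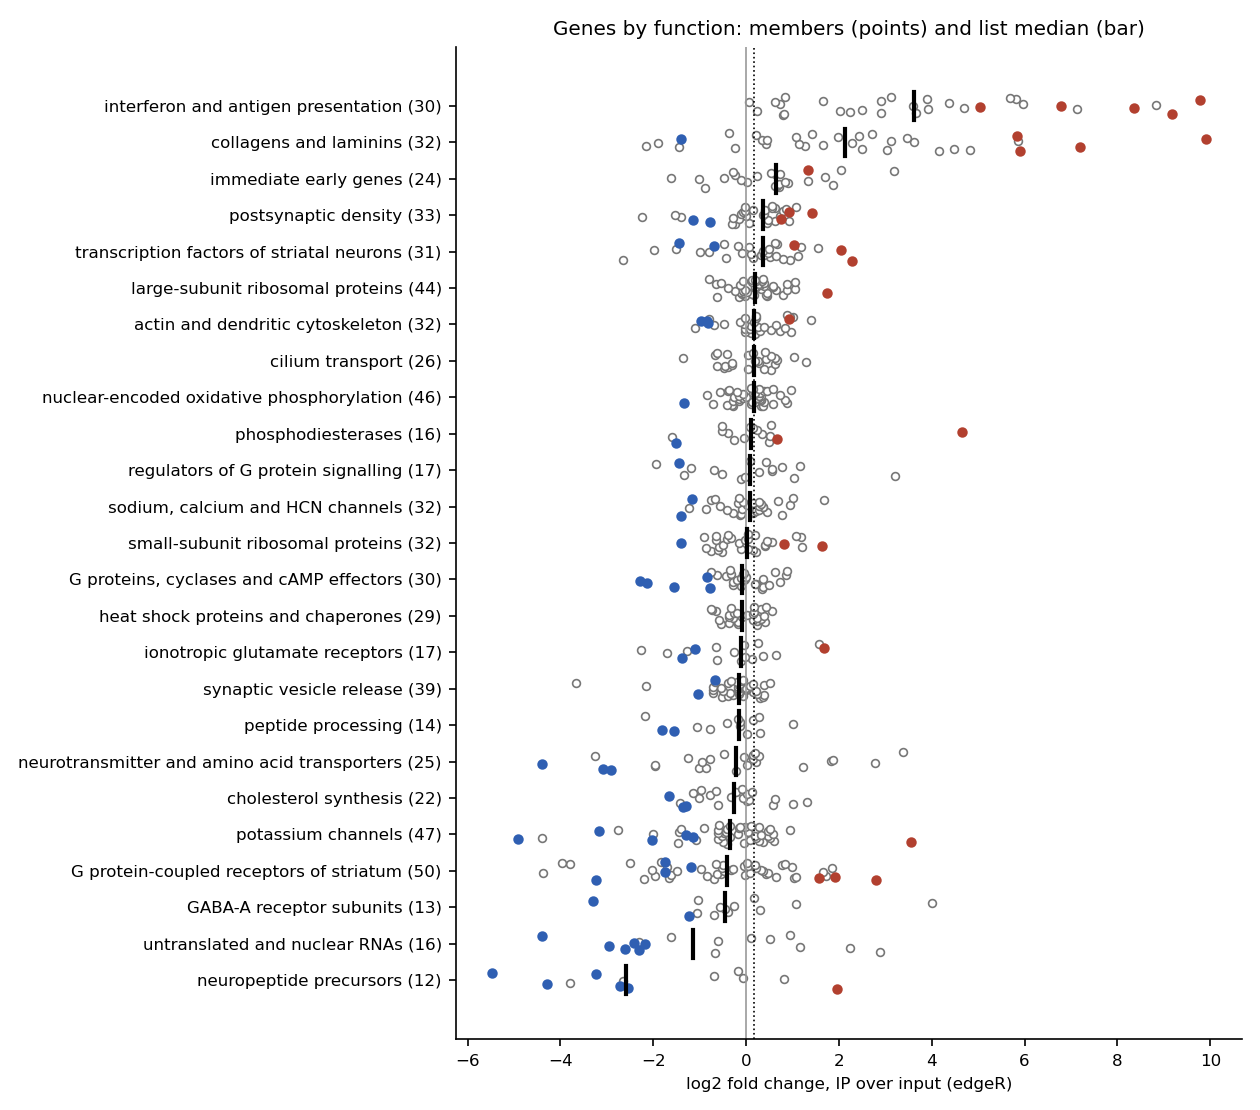
Log2 fold change of IP over input for each tested member of 25 lists by function (list sizes in parentheses), with filled points for called genes, open points for the rest, a bar at each list median and a dotted line at 0.17, the median of all genes. Neuropeptide precursors (-2.59) and untranslated RNAs (-1.15) have the lowest medians, and interferon genes (3.62) and collagens (2.13) the highest.

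Several RNAs that are not translated were lower on the ribosomes. Of 16 untranslated and nuclear RNAs tested, 6 were called lower and 0 higher (median -1.15). Meg3, an imprinted long noncoding RNA of neurons, had 978, 518 and 789.5 CPM in saline, 585, 623, 595 and 836 CPM in nonescalating and 338, 310.1, 829.7, 429 and 1068 CPM in saline withdrawal IP libraries, against 3427, 3873 and 3474 CPM in the inputs. Every IP library lay below every input (-2.31 ± 0.22, adjusted p = 1.47e-05). Rian, from the same imprinted cluster, was lower at -2.42 ± 0.22, adjusted p = 8.9e-06, Snhg11 at -2.96 ± 0.26, adjusted p = 4.77e-06 and Snhg14 at -2.18 ± 0.26, adjusted p = 0.000123, each below its own input in 12 of 12 libraries and called in all 15 fits without 1 library. Rmrp, the RNA of a nuclear and mitochondrial ribonuclease, was lower at -4.40 ± 0.92, adjusted p = 0.011 and Miat at -2.61 ± 0.46, adjusted p = 0.00366. Without the nonescalating input both lost their calls: Rmrp (0.113 without the nonescalating input, range 0.00637 to 0.113) and Miat (0.0797 without the nonescalating input, range 0.00218 to 0.0797). The nuclear RNAs Malat1 and Neat1 were not called: Malat1 ranged from 4993 to 53367 CPM over IP libraries around inputs of 21697, 20692 and 20186 CPM (-0.68 ± 0.38, adjusted p = 0.264), and Neat1 was above its own input in 12 of 12 libraries (2.88 ± 0.96, adjusted p = 0.0789). The calls among these RNAs were 0 higher and 6 lower without set A and 1 higher and 6 lower without the sparse pair.

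Transcripts of blood vessels were higher in IP libraries than in input, in a cell type that no label names as tagged. All 14 endothelial genes had positive fold changes (median 3.36), 6 were called higher and 0 lower. Flt1, a VEGF receptor, held 930.0, 66.6 and 699 CPM in saline, 144, 96.3, 1548 and 400.3 CPM in nonescalating and 2305, 1321, 1057, 478 and 541 CPM in saline withdrawal IP libraries, and 26, 11.5 and 105 CPM in the inputs. Every IP library lay above the input of its own condition, but levels spread widely within a condition, and the saline withdrawal input lay above the lowest IP libraries of the other conditions. Its fold change was 4.02 ± 1.0, adjusted p = 0.0242. Emcn, an endothelial sialomucin (5.40 ± 1.19, adjusted p = 0.0142), and Esam, an adhesion molecule of endothelium (3.98 ± 0.82, adjusted p = 0.0098), were above their own input in 12 of 12 libraries. All 3 calls ended without the saline or the nonescalating input: Flt1 (0.0962 without the saline input and 0.135 without the nonescalating input, range 0.00786 to 0.135), Emcn (0.0622 without the saline input and 0.0843 without the nonescalating input, range 0.00789 to 0.0843) and Esam (0.0546 without the saline input and 0.0669 without the nonescalating input, range 0.0035 to 0.0669). The count of 6 became 0 without the saline input and 0 without the nonescalating input (edgeR, 7 higher at an unadjusted p under 0.05 in both fits), 6 without set A of saline withdrawal and 12 without the saline withdrawal input and nonescalating replicate 2. DESeq2 called 11 and limma voom with library weights 2. The summed list ran from 1.82 to 64.6 times input, with the highest values in nonescalating replicate 3 (45.0% of unique reads outside genes), saline replicate 1 (47.4%), nonescalating replicate 4 (36.8%) and saline replicate 4 (42.6%) and the lowest in set B replicates 2 (31.9%) and 3 (46.4%) of saline withdrawal and saline replicate 3 (27.0%). These ratios depend on the inputs, whose sums were 137, 84.7 and 905 CPM in saline, nonescalating and saline withdrawal. In summed CPM the order differed. Set A replicates 1 (8858 CPM, 70.7% outside genes) and 2 (6046 CPM, 52.7%) of saline withdrawal were highest. Nonescalating replicate 2 (322 CPM, 21.2%) and saline replicate 3 (334 CPM, 27.0%) were lowest. Reads ambiguous between genes were 0.942% to 2.85% in these and all other IP libraries, as given above. The part of either measure in these results was not tested.

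The medians of mural, collagen and interferon genes were also positive. Fibroblast and meninges markers were mixed, with a median of 3.65 over 9 genes, 1 called higher and 1 lower. Their sum ran from 0.0549 to 2.39 times input and was above it in 7 of 12 libraries. The mural sum was above input in 11 of 12. Mural markers had a median of 2.49 over 10 genes, all positive, with 2 called higher and 0 lower. That count was 0 by edgeR without the saline, nonescalating or saline withdrawal input (3, 4 and 7 higher at an unadjusted p under 0.05), 5 without nonescalating replicate 2 and 0 by limma voom. Smtn, a smooth muscle protein outside that list, was called in all 15 fits without 1 library: it held 5.93, 35.8 and 208 CPM in IP libraries and 0.946, 0.269 and 0.23 CPM in the inputs (6.59 ± 1.12, adjusted p = 0.00268), with no overlap. That call was not made by limma voom (adjusted p = 0.101), nor by edgeR with saline and nonescalating libraries only (adjusted p = 0.0604). Calls in the mural list were 2 higher and 0 lower without set A and 3 higher and 0 lower without the sparse pair. Collagens and laminins had a median of 2.13 over 32 genes, 4 called higher and 1 lower. Their count was 2, 0 and 2 without the saline, nonescalating and saline withdrawal input and 10 without nonescalating replicate 2. They were 3 higher and 1 lower without set A and 8 higher and 1 lower without the sparse pair. Interferon and antigen presentation genes had a median of 3.62 over 30 genes, all positive, with 5 called higher and 0 lower. Of the 30, 7 were at 0 counts in every input and so could not come out lower. With those at the lower bound that 3 counts over the inputs allow, the median was 3.36. Their count was 1, 1 and 2 without the saline, nonescalating and saline withdrawal input, and 11, 9 and 12 without saline replicate 3 and nonescalating replicates 1 and 2. DESeq2 called 18 and limma voom 1. The interferon calls were 4 higher and 0 lower without set A and 9 higher and 0 lower without the sparse pair. The summed interferon list ran from 0.78 times input in nonescalating replicate 2 to 16.3 times in saline replicate 1, and was above input in 9 of 12 libraries.

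Genes with no count in any input made up 980 of those tested and 85 of the 549 called higher. Such genes pass the count filter through IP libraries alone and could not come out lower, so their direction carries no information. For these the fold is a lower bound, against 3 counts over the 3 inputs together, a floor that covers counting error only. Timeless, a gene of the replication fork, was at least 106-fold higher, with IP libraries at 1.61, 10.8 and 50.3 CPM (lowest, median, highest) and a call in all 15 fits without 1 library (adjusted p = 0.00034). Oas1a, an interferon-induced sensor of double-stranded RNA, was at least 54.8-fold higher (0.586, 4.75 and 23.7 CPM, adjusted p = 0.00423), also called in all 15. Leaving out a library cannot put a count in an input, so these 15 fits do not test the 0 there. As Timeless and Oas1a passed the filter through IP libraries alone, their adjusted p is no separate support for a rise. E2f2, a cell-cycle transcription factor at a count in 1 input alone, rose from 0, 0.0895 and 0 CPM to 2.66, 7.65 and 31.9 CPM (adjusted p = 0.00192), and Lpar6, a lysophosphatidic acid receptor, from 0, 0 and 0.922 CPM to 3.27, 18.5 and 82.1 CPM (6.24 ± 1.12, adjusted p = 0.00415). In each of these genes every IP library was above its own input. With genes held to at least 1 count in each input, 459 of 11977 were called higher and 724 lower, and the median of all genes moved to -0.01. This setting was chosen after seeing the data.

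What the called genes share beyond the call was described from GENCODE M21, which held 91.1% of the genes tested. Median GC content of the transcripts was 54.1% for genes called higher, 45.8% for genes called lower and 49.7% over all. The longest transcript had a median of 3766 bases in genes called higher, 4009.5 in genes called lower, 3400.5 over all genes and 4478.5 in genes within 2-fold of equality. Among genes with an annotation, long intergenic noncoding RNAs numbered 3 of 515 called higher and 15 of 540 called lower, against 215 of 14958 tested. Genes with an exon over a gene on the opposite strand, whose reads cannot be told apart without strand, were called at rates of 3.53% higher and 3.0% lower, against 3.41% and 3.83% in the rest.

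Agreement within and between conditions was then taken from the libraries themselves. Of the 549 genes called higher, 381 (69.4%) were above their own input in all 12 IP libraries, against 4.98% of all genes. In 215 of the 549 every IP library lay above every input, against 308 of all 16424 genes (1.88%). Of the 576 called lower, 505 (87.7%) were below their own input in all 12, against 6.35% of all genes. In 364 of the 576 every IP library lay below every input, against 552 of all 16424 genes (3.36%). Within saline, nonescalating and saline withdrawal taken alone, all IP libraries lay above their input in 28.4%, 21.9% and 33.2% of the genes tested and below it in 29.9%, 25.6% and 23.2%. The shares among called genes follow in part from the call itself, which used the same values. All 549 genes called higher had positive estimates in each of the 3 conditions, against 5018 of all 16424 genes (30.6%). Of the 576 called lower, 556 had negative ones in each. These estimates come from the libraries that made the call. The 85 genes called higher with 0 counts in every input could not have come out negative.

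A stricter reading called genes in 2 conditions and looked at the condition left out. Genes at 0 in the input left out were kept, and these could not come out lower there, so their direction was fixed. Of the 549 genes called higher over all conditions 36.1% had a 0 in some input. That was so for 27.1% of all genes and 1.39% of the genes called lower. Of 159 genes called higher without the saline libraries, 143 (89.9%) were higher in saline as a mean of log2 CPM, against 52.0% of all genes, and of 238 called lower, 219 (92.0%) were lower, against 48.0%. For nonescalating, 324 of 373 (86.9%, all genes 52.7%) and 249 of 272 (91.5%, all genes 47.3%) kept the direction. For saline withdrawal, 82 of 94 (87.2%, all genes 57.4%) and 205 of 237 (86.5%, all genes 42.6%) did. Asking that every IP library of the condition left out lie on that side gave 73.0%, 49.9% and 67.0% of the genes called higher in saline, nonescalating and saline withdrawal (31.6%, 23.5% and 33.8% of all genes). The genes called lower gave 85.7%, 80.9% and 82.3% (30.3%, 25.9% and 24.9% of all genes). In each of the 3 conditions this share was larger for genes called lower than for genes called higher. As a description over genes, which are not independent, the estimates of 8596 genes with at least 10 counts in every library correlated at r = 0.54 between saline and nonescalating, 0.31 between saline and saline withdrawal and 0.28 between nonescalating and saline withdrawal. The conditions share no library, but saline and nonescalating share library set A, and the library set term is fitted from saline withdrawal alone.

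**Figure D5:**
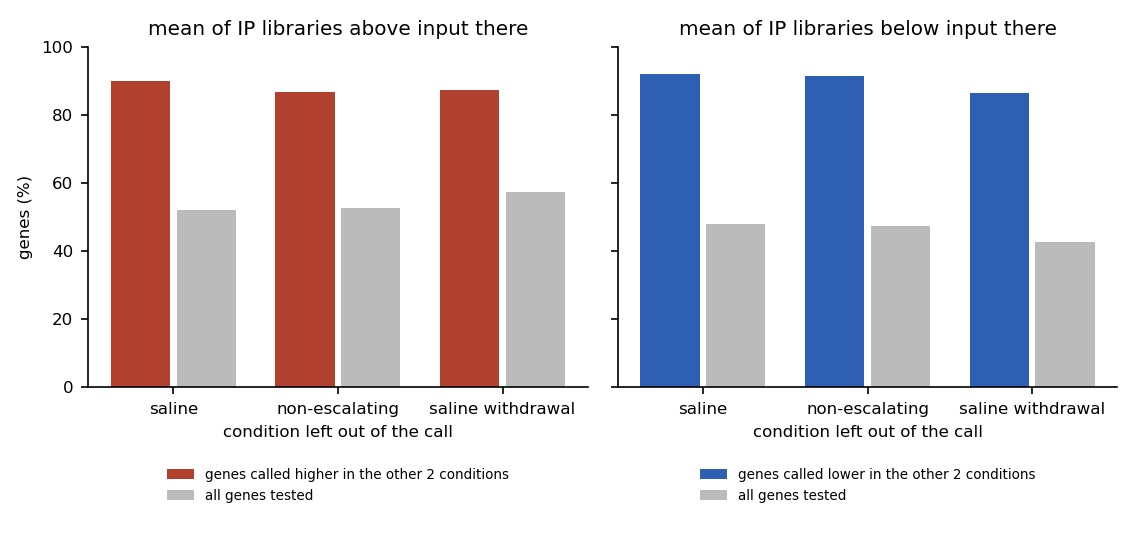
Share of genes, in percent, whose mean over IP libraries lies above (left) or below (right) the input of a condition that did not enter the call, for genes called in the other 2 conditions (coloured bars) and for all genes tested (grey bars). The coloured bars lie between 86.5% and 92.0% and the grey bars between 42.6% and 57.4%.

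Taken alone, each condition has 1 input, whose spread is assumed to be that of the IP libraries, and counts of calls differed widely. In saline 0 of 17670 genes were called higher (0%) and 19 lower (0.108%), with 865 higher and 811 lower at an unadjusted p under 0.05. Limma voom called 7 higher and 133 lower there. In nonescalating 53 (0.3%) and 96 (0.543%) were called, and in saline withdrawal 614 (3.47%) and 336 (1.9%), of which 196 of the 614 were at 0 counts in that input. Of the 549 genes called higher over all conditions, 454 were called in no single condition and 0 in all 3, while of the 576 called lower 379 were called in no single condition and 18 in all 3. A count in 1 condition and not in another does not show a difference, so the difference itself was tested.

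That test, of the 2 interaction terms together, called 10 of 17670 genes (0.0566%). Fig4, a lipid phosphatase subunit, had 67.1 and 79 CPM in the saline and nonescalating inputs and 1.84 CPM in that of saline withdrawal. Its IP libraries of saline withdrawal held 38.2, 50.8, 112, 139 and 98.2 CPM, and the estimates in the 3 conditions were 0.60, 0.64 and 5.97. Eif2b4, Cep164 and Snapc4 were at 0 in the saline withdrawal input, and Acad8, Dnlz, Zfp174, Gga1 and BC003965 stood there at 0.23 to 4.84 CPM. Tspan4 was the exception, at 48.2 CPM in that input and 0.0895 CPM in the nonescalating one. These 9 genes other than Tspan4 thus had their lowest input value in the library with most genes at 0, and its part in these calls was not tested. The count was 95 without nonescalating replicate 2, 3 without saline replicate 3, 2 without saline replicate 1 and 0 without any other single IP library. Limma voom called 0 and DESeq2's likelihood ratio test 884. No marker gene of D2, D1, astrocyte, oligodendrocyte or interneuron lists was among the 10. With 0.0566% of all genes called, lists this short would hardly hold a call. Their absence therefore does not show that these markers agree between conditions.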

How the data were processed

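The deposited files give raw whole-number read counts per gene symbol for each library, made by the authors with STAR 2.0.0e, HTSeq and mm10, per the submitters' processing notes. The labels name neither the annotation release nor the strand setting. Tables listed 32657 or 32531 symbols and were joined on symbols, old and current names paired. HTSeq's closing entries stayed out of library sizes and gave the shares of reads outside genes and ambiguous between genes. Conditions came from the labels, which name no library set. Set A or B was inferred from the series of library numbers. Set A replicate 2 of saline withdrawal lists 32531 symbols, as the set B libraries do, so its place in set A is uncertain. With it as a set of its own, 1075 genes were called (525 higher, 550 lower). The transgene's reads carry no symbol of their own.

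Counts were fitted with edgeR 4.0.16 (R 4.3.3, TMM factors, filterByExpr, quasi-likelihood test, Benjamini-Hochberg adjustment) on condition, library set and IP against input. A second fit gave IP against input within each condition and the test of their difference. Alternatives were DESeq2 1.42.0, limma 3.58.1 voom with library weights, other factors and filters, and left-out libraries. Library measures were compared by exact permutation within condition. Scripts were tested on simulated data. Per-length levels use exon bases of GENCODE M21 on GRCm38, which matched 91.1% of the genes tested.

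Genes named are, per direction, the 15 largest called changes with all IP libraries on one side of their input and a mean of at least 5 CPM, the 10 most abundant called genes at 0 in every input, the 15 most abundant within 2-fold of equality, the 4 lowest p of each list at most, the 10 lowest p for a difference between conditions, and Drd2, Adora2a, Penk, Drd1, Slc1a2, Rpl10a and the neighbours of Drd2. Some of these are not reported here. Other list members, among them Nxph1, Aif1, Siglech, Laptm5, Csf1r, Upb1, Gpr52, Ebf1, Chat, Rgs9, Syt7, Kcnd3 and Malat1, were named after their values were seen. The libraries, lists and tests were chosen with earlier results of these data known. Genes encoded by mitochondria were not analysed here.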

Additional observations from a re-analysis of the deposited data

Results flagged for a closer look

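Single libraries stood apart from the others of their group (Dixon's test at 95%) in 15 of 274 groups of 4 or 5 IP libraries tested, where chance gives about 1 in 20. In nonescalating replicate 4 Lhx6 was at 9.82 CPM (others 3.0 to 3.53) and Meg3 at 836 CPM (others 585 to 623). Nonescalating replicate 3 held 0.713 CPM of Rmrp (others 0.218 to 0.302), 92.0 CPM of the tight junction gene Cldn5 (others 7.24 to 15.5) and 19.7 CPM of Gga1 (others 31.4 to 33.5). Set A replicate 1 of saline withdrawal, the library with 70.7% of unique reads outside genes, held 731 CPM of Neat1 (others 57.3 to 232), 1380.5 CPM of the interferon-induced Gbp4 (others 28.2 to 92.7), 60.6 CPM of Irf1 (others 7.91 to 21.8), 50.3 CPM of Timeless (others 9.97 to 20.6) and 82.1 CPM of Lpar6 (others 14.9 to 33.6). Set A replicate 2 held 4.83 CPM of Olig1 (others 0.293 to 1.25). Set B replicate 2 of saline withdrawal held 75.8 CPM of the smooth muscle gene Myh11 (others 255 to 320), and set B replicate 3 held 769 CPM of Mef2d (others 430 to 496). Of the genes that every other library holds at 10 counts or more, 32 were at 0 in nonescalating replicate 2 (others 0 to 2) and 8 in set B replicate 3 of saline withdrawal (others 0 to 2).

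The fold change of IP over input differed between conditions by edgeR's quasi-likelihood test of the interaction in 10 genes: adjusted p = 0.0352 for Fig4, Eif2b4, Cep164, BC003965, Acad8, Tspan4, Gga1 and Snapc4, 0.0389 for Dnlz and 0.0488 for Zfp174.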

How the results depend on the processing

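The 1125 genes called became 2928 with DESeq2 (1832 higher, 1096 lower), 635 with a replicate block (499 and 136), 331 with saline and nonescalating libraries only, and 425 in a test against 1.5-fold. Leaving out 1 library gave 241 to 1526, with 241, 614 and 565 without the nonescalating, saline and saline withdrawal input. The split of higher to lower was 218 to 720 with limma voom and 873 to 606 with no filter. Genes within 2-fold of equality numbered 1803 to 2985 without 1 library. The 10 genes that differed between conditions became 884 with DESeq2's likelihood ratio test, 0 with limma voom and 0 to 95 without 1 library. Calls within saline (19) became 140 with limma voom and 0 to 27 without 1 library. Those within nonescalating (149) became 1129 and 0 to 236, and those within saline withdrawal (950) were 398 to 1376 without 1 library. Among library measures, the IP excess of genes with a count at equal depth was 1646 (exact permutation p = 0.075, adjusted p = 0.15). It was 1453 to 1863 without 1 IP library. The IP excess of genes at 0 that the other libraries hold was -63.5 (exact permutation p = 0.0417, adjusted p = 0.125). It was -66.1 to -62.6 without 1 IP library. The cause of these changes was not tested.

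The replicate block rests on replicate number 1, the only number that IP and input libraries share, so whether the numbers pair the libraries could not be checked with 1 input per condition. Of 96 named genes with a call, 37 lost it under the block, 14 with limma voom, 24 in the test against 1.5-fold and 0 with DESeq2, and 0 changed sign. In all 15 fits without 1 library 48 of the 96 were called, and 40 of the other 48 lost the call only where an input was left out. Of all called genes, 164 (51 higher, 113 lower) were called in each of these fits. With 3 inputs, each call rests on few libraries of total RNA, and low counts limit the fold changes of genes at or near 0 there.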
